A study of Homo sapiens with 18 samples.

Results

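The 10 immediate early response genes described here, which lie outside the AP-1 and NR4A families, were followed across serial passage of pancreatic cancer cells through nerve: EGR1, EGR2, EGR3, KLF4, KLF6, CSRNP1, IER2, IER3, ZFP36 and BTG2. They were taken by gene symbol from the count table, where each symbol stood for 1 of 57445 genes, and all 10 were among the 16187 genes with enough counts to test. RNA sequencing libraries had been made from MiaPaCa-2, an established human pancreatic cancer line, labelled wild type throughout. The injected groups were leaders of passages 1, 2, 3 and 4, and laggers of passage 1, collected after injection into the sciatic nerve; the labels do not say where along the nerve either was taken. They were set against the same line grown in vitro and never injected, called the parental line here. Each of the 6 groups had 3 libraries. Between passages, part of the leaders was expanded in culture and injected again. All groups derive from 1 cell line, the injected host is not named in the labels, and nothing states whether RNA was taken at harvest or after regrowth. The labels do not state that replicates are separate cultures or animals, so p-values measure the spread between these libraries, which may be technical.

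Immediate early genes are transcribed within minutes of a growth factor, stress or injury signal, without the need for new protein synthesis. Signals through the ERK and p38 kinases act on factors already bound at their promoters, among them serum response factor (SRF) with its ternary complex partners of the ELK family, and CREB. Many of the transcripts are short-lived, and several of the products feed back on the response. EGR1, EGR2 and EGR3 are zinc finger transcription factors that bind a shared GC-rich site, and EGR2 is also known as the regulator of myelination in Schwann cells. KLF4 and KLF6 are zinc finger factors linked to growth arrest and differentiation. CSRNP1 is a nuclear protein named for its cysteine and serine content and its response to AXIN1, IER2 is a small nuclear protein of the early response, and IER3 modulates cell survival and ERK signalling. ZFP36, also called tristetraprolin, binds AU-rich elements and hastens the decay of cytokine and other short-lived mRNAs, and BTG2 restrains proliferation and binds the CCR4-NOT deadenylase.

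Promoter sequence was available from RefSeq for 8 members, on GRCh38.p14, and the 250 bases before each transcript start were searched on both strands. The CArG box, to which SRF binds, lay before EGR1 and before 1 of the 3 EGR2 starts, in 2 of the 8 members, against 1.16% of 35116 promoters of the same length. EGR1 had one at -105 to -96 and another at -83 to -74, counted from the base before the start as -1, and EGR2 had one at -71 to -62. Both genes carried the same letters, CCATATATGG. TGACG, a part of the CRE to which CREB binds, lay before 6 of the 8 (EGR1, EGR2, KLF4, CSRNP1, IER2 and BTG2), against 21.2% of promoters. A member counted if any of its starts matched, while the percentages are of single promoters, so the 2 are not alike. EGR2 and CSRNP1 had more than 1 start, and TGACG lay before 1 start of each. The full CRE TGACGTCA (1.65% of promoters), the EGR site GCGTGGGCG (0.72%), the AP-1 site, TGACTCA or TGAGTCA (4.2%), and TATAAA (10.7%) were before none of the 8, and the ETS core GGAA was before all 8 and 92.7% of promoters. TGACG is contained in the full CRE. A match is a string of letters in this window and says nothing of what was bound. The sequences before EGR1 and EGR2 are shown for their CArG boxes, in capitals. That before IER2, the member with the smallest log2 fold changes against the parental line, is shown beside them and has no CArG box. KLF4, KLF6, CSRNP1, ZFP36 and BTG2 had none either, and each rose in every injected group, as described below. A tie between the box and these changes was not tested.
EGR1, chr5:138465229-138465478, plus strand: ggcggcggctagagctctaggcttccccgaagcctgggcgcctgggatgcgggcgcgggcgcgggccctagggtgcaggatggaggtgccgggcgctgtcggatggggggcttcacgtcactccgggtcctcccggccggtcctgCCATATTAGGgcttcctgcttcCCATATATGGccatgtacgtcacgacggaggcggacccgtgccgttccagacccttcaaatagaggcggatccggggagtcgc
EGR2, chr10:62816367-62816616, minus strand: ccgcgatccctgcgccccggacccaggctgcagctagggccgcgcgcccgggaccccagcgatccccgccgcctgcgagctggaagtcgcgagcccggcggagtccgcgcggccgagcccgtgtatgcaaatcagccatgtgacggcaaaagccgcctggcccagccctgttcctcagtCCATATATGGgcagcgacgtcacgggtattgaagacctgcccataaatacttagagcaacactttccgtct
IER2, chr19:13150161-13150410, plus strand: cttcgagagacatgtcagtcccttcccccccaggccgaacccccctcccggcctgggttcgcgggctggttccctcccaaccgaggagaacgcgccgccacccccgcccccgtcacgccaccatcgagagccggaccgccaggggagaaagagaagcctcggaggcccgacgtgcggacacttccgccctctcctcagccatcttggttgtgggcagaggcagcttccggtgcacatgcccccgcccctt

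**Figure D1:**
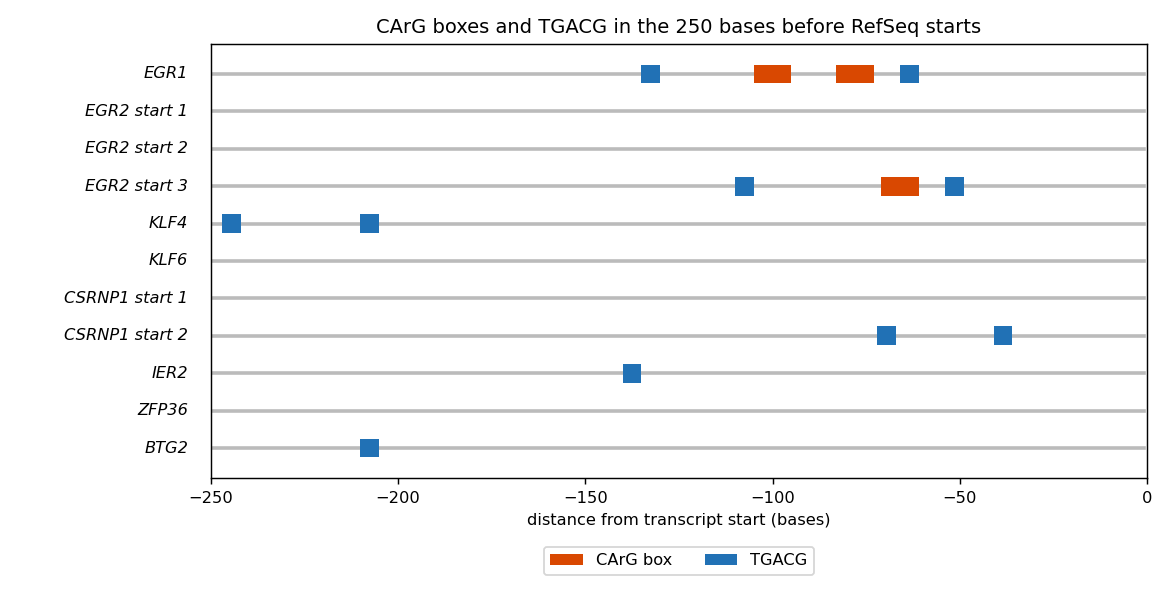
Positions of CArG boxes (orange) and TGACG (blue) in the 250 bases before the RefSeq transcript starts of 8 members, with distance from the start in bases on the horizontal axis and 1 line per start, numbered where a gene has several. CArG boxes appear before EGR1, with 2, and 1 start of EGR2, with 1, and TGACG appears before 6 of the 8 genes.

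Coordinates below are those of GENCODE 29 on GRCh38, since the labels name no build for the count table. EGR1 is ENSG00000120738.7, chromosome 5, 138465490 to 138469315, plus strand. EGR2 is ENSG00000122877.9, chromosome 10, 62811996 to 62919900, minus strand, and EGR3 is ENSG00000179388.8 on chromosome 8. KLF4 is ENSG00000136826.10, chromosome 9, 107484852 to 107490482, minus strand, and KLF6 is ENSG00000067082.10, chromosome 10, 3775996 to 3785281, minus strand. CSRNP1 is ENSG00000144655.10, chromosome 3, 39141855 to 39154562, minus strand. IER2 is ENSG00000160888.6, chromosome 19, 13150415 to 13154908, plus strand, and IER3 is ENSG00000137331.11, chromosome 6, 30743199 to 30744554, minus strand. ZFP36 is ENSG00000128016.4, chromosome 19, 39406813 to 39409412, plus strand, and BTG2 is ENSG00000159388.5, chromosome 1, 203305491 to 203309602, plus strand. All 10 are protein-coding genes, counted over their exons. The libraries did not mark strand, so reads of an overlapping antisense gene cannot be told apart from a member's own. GENCODE 29 has opposite-strand neighbours overlapping EGR3, CSRNP1, IER2 and IER3. Those beside EGR3 and IER2 had 0 counts in every library, IER3-AS1 had at most 12 in any library, and both beside CSRNP1 were not among the gene identifiers of the table.

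Counts assigned to genes ran from 15113462 to 39373248 per library, and levels are given in CPM, the count per 1000000 of library size after TMM scaling in edgeR. Mitochondrially encoded genes took 1.95% to 8.57% of gene counts in the 15 injected libraries and 0.472% to 0.873% in the 3 parental ones, and multiply aligned reads made up 20.2% to 32.6% of entries in injected libraries and 13.9% to 16.4% in parental ones. Passage 3 leader replicate 2 stood apart. It had 24.8% of entries unaligned, and the beta-globin transcript HBB reached 21008 CPM in it against at most 1.24 CPM in any other library. Of 6 genes listed as markers of the line, MTAP was at 0 counts throughout, and CDKN2A at 0 outside 6 counts in the laggers. VIM, a mesenchymal filament protein, was at 1762 to 2829 CPM in all libraries. The epithelial keratins moved with injection, KRT8 at 4356 to 12271 CPM in injected libraries and 1909 to 3122 CPM in parental ones, and KRT18 at 4677 to 14649 CPM in injected libraries and 2122 to 2701 CPM in parental ones. CDH1, an epithelial cadherin, was at 0 in the parental line and at up to 14.4 CPM in injected libraries. Of the 4 line markers tested, 3, 4, 3 and 2 rose in leaders of passages 1 to 4 and 2 in laggers.

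Against the parental line, most members stood higher in every injected group. In passage 1 laggers all 10 rose, and in leaders of each passage 9 rose and IER2 did not pass. The share of tested genes called higher by the same edgeR test was 23.2%, 15.1%, 13.8% and 14.8% for leaders of passages 1 to 4 and 21.5% for laggers, at an adjusted p under 0.05. Called lower were 22.4%, 14.8%, 10.8% and 12.9% of tested genes for leaders of passages 1 to 4 and 17.8% for laggers. The median log2 fold change of the 10 was 2.47, 2.54, 2.51 and 2.35 for the leaders and 2.98 for the laggers, beside medians over all tested genes of 0.07, 0, 0.01, 0.03 and 0.09. These 5 comparisons share the same 3 parental libraries. For 9 members each of the 15 injected libraries lay above each of the 3 parental ones, a pattern held by 8.48% of tested genes. Bulk libraries cannot tell a change in the share of cells that express a gene from a change in RNA per cell. The counts for passage 3 leaders were the same without replicate 2 of that group. The mitochondrial and multiply aligned shares given above moved with the same split of libraries, and their part in the result was not tested. With library sizes from nuclear genes alone, 9 members rose in leaders of passages 1, 2 and 4 and all 10 in passage 3 leaders and in laggers.

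**Figure D2:**
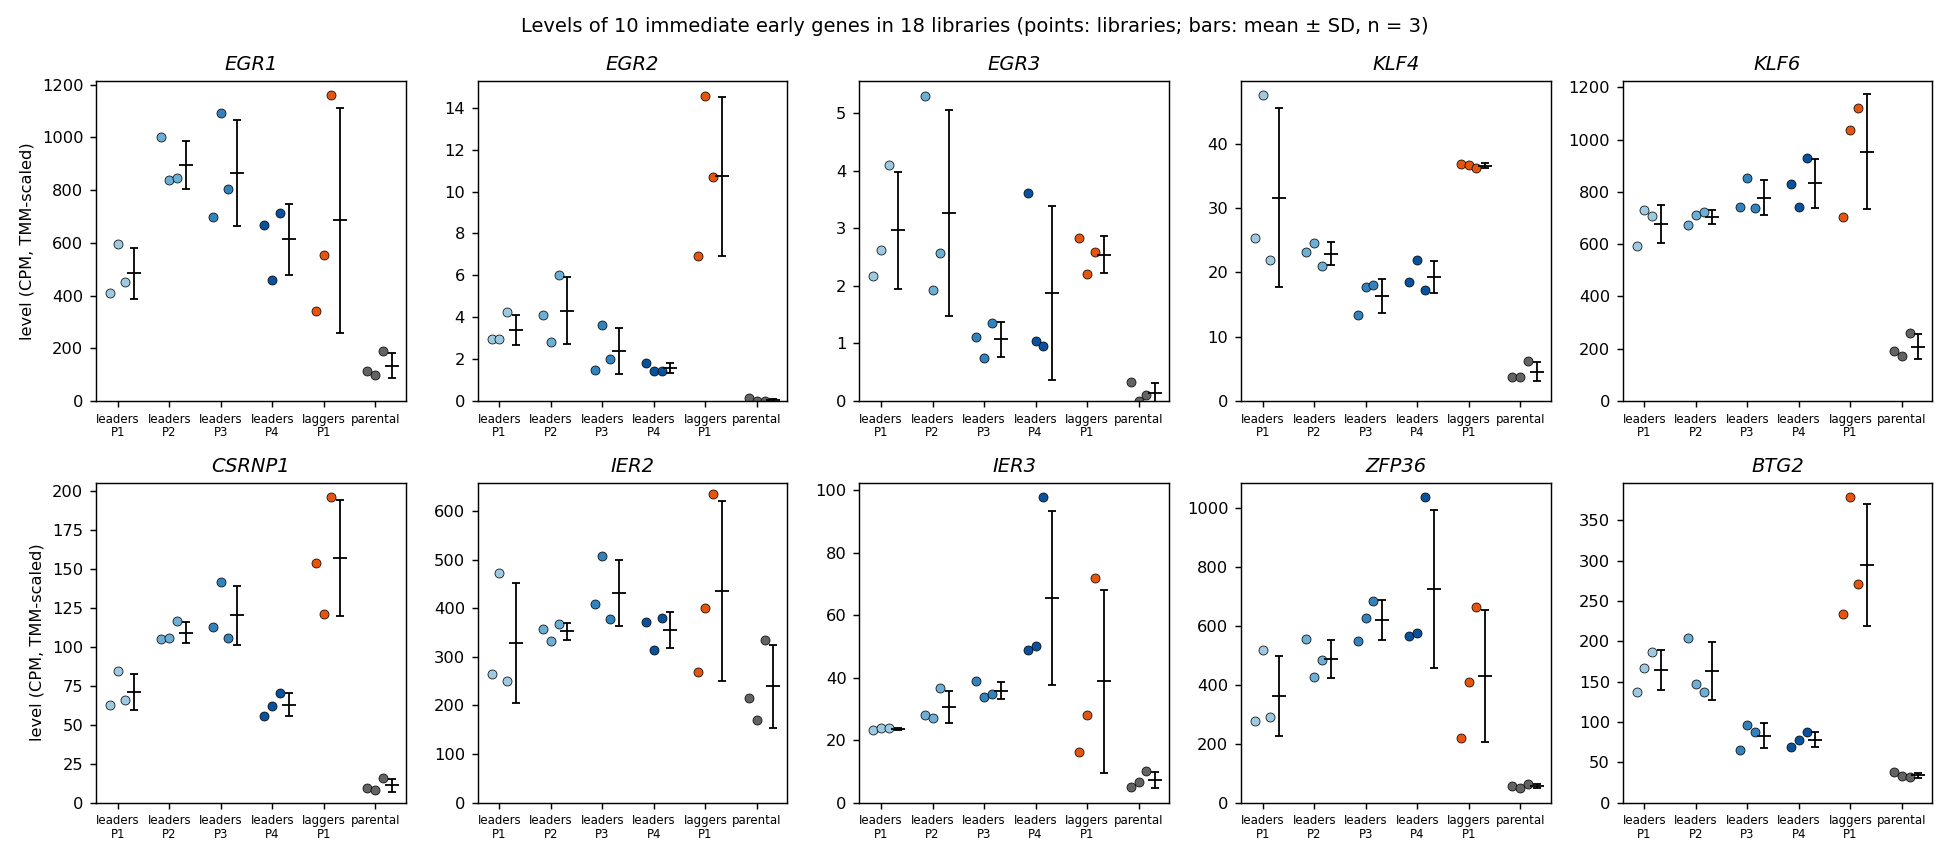
Level of each gene (CPM, linear axis from 0) in the 18 libraries, by group, with points for libraries and bars for mean ± SD of 3 libraries. For every gene but IER2 the 15 injected libraries sit above the 3 parental ones.

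EGR1 rose in every injected group. It stood at 408, 594 and 451 CPM in passage 1 leaders, 1002, 839.5 and 846 CPM in passage 2, 699, 1091 and 806 CPM in passage 3 and 668, 459 and 712 CPM in passage 4. Laggers had 339.6, 555 and 1160.5 CPM, and the parental line 115, 98.5 and 188 CPM. The laggers held both the lowest and the highest injected library, and no injected library came down to the parental level. The log2 fold change against the parental line was 1.86 ± 0.36, adjusted p = 0.000694, in passage 1 leaders and 2.74 ± 0.38, adjusted p = 7.38e-05, in passage 2 leaders. It was 2.69 ± 0.37, adjusted p = 0.000104, in passage 3 and 2.20 ± 0.37, adjusted p = 0.000444, in passage 4 (edgeR, ± SE). Laggers differed by 2.35 ± 0.37, adjusted p = 0.00016. From the highest mean to the lowest, the groups ran passage 2 leaders, passage 3 leaders, laggers, passage 4 leaders, passage 1 leaders and the parental line, and only the last step was free of overlap between neighbours.

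EGR2 and EGR3 were rare transcripts that were close to absent before injection. EGR2 had 81, 60 and 102 counts in passage 1 leaders, 86, 60 and 163 in passage 2, 27, 68 and 61 in passage 3 and 41, 34 and 43 in passage 4. Laggers held 147, 304 and 153 counts and the parental libraries 5, 0 and 0. All parental EGR2 counts came from replicate 1. Per scaled library size, EGR2 was higher than in the parental line by a ratio of 72.4 (30.6 to 225), 94.7 (40.2 to 294), 49.5 (20.8 to 155) and 32.7 (13.6 to 103) in leaders of passages 1 to 4 and 228 (97.3 to 705) in laggers, with 95% intervals for counting error only. Without parental replicate 1 the parental line had 0 counts, and EGR2 was at least 34.0-fold higher in passage 4 leaders and at least 237-fold higher in laggers, with the parental group set at 3 counts. The edgeR adjusted p was at most 0.000163 in the 5 comparisons with the parental line.

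EGR2 also marks Schwann cells, which a nerve holds. SOX10 and S100B, genes of that lineage, were near 0. CDH19, another, had 0 counts in the parental line and 74 in laggers. Leaders of passages 1 to 4 had 100, 26, 3 and 10 CDH19 counts. In laggers, where EGR2 totalled 604 counts, SOX10 had 8 counts and S100B 2 over the 3 libraries. In passage 2 leaders EGR2 totalled 309 counts, with 0 for SOX10 and 6 for S100B. In passage 4 leaders EGR2 totalled 118 counts, with 0 for SOX10 and 2 for S100B. The part of such cells in the EGR2 level was not tested. Over 9 Schwann cell markers other than EGR2, summed levels were 28.8 to 89.4 CPM in injected libraries and 233 to 270.0 CPM in parental ones, where MBP alone took 199 to 235 CPM. Of the 5 tested, 1, 0, 0 and 0 rose and 1, 1, 1 and 1 fell in leaders of passages 1 to 4. In laggers 1 rose and 2 fell, all against the parental line.

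EGR3 totalled 211, 222, 75 and 135 counts in leaders of passages 1 to 4, 143 in laggers and 16 in the parental line. Parental replicate 1 supplied 13 of the 16 parental counts. The ratio to the parental line was 19.6 (11.8 to 35.0) in passage 1 leaders, 7.43 (4.29 to 13.7) in passage 3 leaders and 16.9 (10.0 to 30.3) in laggers. Without parental replicate 1, these ratios were 65.2 (22.0 to 318), 24.7 (8.12 to 122) and 56.0 (18.8 to 275). The rise passed in each injected group, with edgeR adjusted p from 0.000585 in passage 1 leaders to 0.0172 in passage 3 leaders. In passage 3 it did not pass without parental replicate 3 (adjusted p = 0.0626). In passage 4 leaders one library carried much of the level: replicate 1 had 3.62 CPM and the others 1.04 and 0.957 CPM, and the log2 fold change of 3.62 was 2.71 without it. Leaving out parental replicate 2 also lowered it, to 3.01, and lowered the change of passage 1 leaders to 3.69, against 4.29 with all libraries.

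KLF4 and KLF6 rose in every injected group. KLF4 ranged over 22.0 to 47.6 CPM in passage 1 leaders, 21.0 to 24.6 in passage 2, 13.3 to 18.03 in passage 3 and 17.2 to 22.0 in passage 4. Laggers had 36.9, 36.7 and 36.2 CPM and the parental line 3.78, 3.65 and 6.25 CPM. The laggers were the tightest group and the parental libraries lay below all others. The log2 fold change of KLF4 was 2.80 ± 0.29, adjusted p = 3.75e-06, in passage 1 leaders, 2.08 ± 0.29, adjusted p = 8.79e-05, in passage 4 leaders and 3.01 ± 0.29, adjusted p = 2.37e-06, in laggers. KLF6 ranged over 594 to 729, 675 to 725, 738 to 854 and 742 to 929 CPM in leaders of passages 1 to 4, 704 to 1121 CPM in laggers and 173 to 261 CPM in the parental line. Each injected library of KLF6 lay above each parental one, and its log2 fold change was 1.70 ± 0.19, adjusted p = 7.37e-06, in passage 1 leaders, 2.01 ± 0.19, adjusted p = 3.99e-06, in passage 4 leaders and 2.20 ± 0.19, adjusted p = 8.44e-07, in laggers (edgeR).

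CSRNP1 rose in every injected group, and had the smallest p of the 10 in laggers. It stood at 62.7, 84.1 and 65.5 CPM in passage 1 leaders, 105, 105 and 116 in passage 2, 113, 142 and 106 in passage 3 and 55.8, 61.9 and 70.4 in passage 4. In laggers it reached 153, 121 and 196 CPM, against 9.32, 8.29 and 15.6 CPM in the parental line. Passages 2 and 3 lay above passages 1 and 4 with no overlap, a pattern without a steady direction. Against the parental line the log2 fold change was 2.68 ± 0.25, adjusted p = 1.37e-06, in passage 1, 3.30 ± 0.26, adjusted p = 3.43e-07, in passage 2, 3.44 ± 0.26, adjusted p = 3.63e-07, in passage 3 and 2.502 ± 0.25, adjusted p = 5.05e-06, in passage 4. In laggers it was 3.82 ± 0.26, adjusted p = 1e-07, a 14.2-fold difference (95% interval 9.63 to 20.8), and CSRNP1 ranked 13 by p among the 16187 genes.

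IER2 had the smallest log2 fold change of the 10 members in each of the 5 comparisons with the parental line. It stood at 265, 472 and 250.5 CPM in passage 1 leaders, 357, 333 and 367 in passage 2, 408, 507 and 378 in passage 3 and 372, 314 and 380.3 in passage 4. Laggers had 269, 401 and 634 CPM and the parental line 215, 169 and 335 CPM. Parental replicate 3 was higher than 5 of the 15 injected libraries. The log2 fold change was 0.46 ± 0.30 in passage 1 leaders (95% interval -0.19 to 1.10, adjusted p = 0.232), 0.56 ± 0.30 in passage 2 (adjusted p = 0.18), 0.85 ± 0.31 in passage 3 (adjusted p = 0.0534) and 0.57 ± 0.30 in passage 4 (-0.08 to 1.21, adjusted p = 0.179). Of the 5 comparisons, that of laggers passed (0.86 ± 0.31, adjusted p = 0.0347), and that call was lost without parental replicate 1 or 2 (adjusted p = 0.0973 and 0.125) or without lagger replicate 2 or 3 (0.0535 and 0.153). Without lagger replicate 3 its log2 fold change was 0.54, and in passage 3 leaders it passed without parental replicate 3 (1.17, adjusted p = 0.0233). Whether the change of IER2 differed from that of the other members was not tested.

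IER3 rose in every injected group. Passage 1 leaders had 23.4, 24.0 and 23.7 CPM, passage 2 leaders 28.0, 27.2 and 36.5 CPM, passage 3 leaders 38.9, 34.0 and 34.8 CPM and passage 4 leaders 48.8, 50.1 and 97.8 CPM. The gene stood at 16.1, 28.2 and 72.1 CPM in laggers and 5.15, 6.45 and 9.98 CPM in the parental line. Laggers spread over more than the range of the leaders of passages 1 to 3, and replicate 3 was the highest of both passage 4 leaders and laggers. The log2 fold change was 1.72 ± 0.43, adjusted p = 0.00371, in passage 1 leaders, 3.19 ± 0.45, adjusted p = 0.000105, in passage 4 leaders and 2.43 ± 0.43, adjusted p = 0.000455, in laggers (edgeR). Without lagger replicate 3 the last value was 1.68.

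ZFP36, the mRNA decay factor, rose in every injected group. It stood at 277, 516 and 291 CPM in passage 1 leaders, 554, 427 and 483 in passage 2, 547, 626 and 683 in passage 3 and 565, 576 and 1035 in passage 4. Laggers had 218, 409 and 664 CPM, against 55.2, 48.3 and 63.4 CPM in the parental line, where the 3 libraries were close together. The log2 fold change was 2.70 ± 0.36, adjusted p = 2.86e-05, in passage 1 leaders, 3.13 ± 0.36, adjusted p = 1.77e-05, in passage 2, 3.48 ± 0.37, adjusted p = 9.57e-06, in passage 3, 3.70 ± 0.37, adjusted p = 5.93e-06, in passage 4 and 2.95 ± 0.36, adjusted p = 1.94e-05, in laggers. In passage 4 leaders this was 13.0-fold (95% interval 7.53 to 22.6). BTG2, the antiproliferative deadenylase partner, behaved otherwise over the passages. Its levels were 138, 167 and 187 CPM in passage 1 leaders, 204, 147 and 138 in passage 2, 65.4, 96.1 and 88.0 in passage 3 and 69.4, 77.0 and 87.9 in passage 4, with 233, 379 and 271 CPM in laggers and 37.5, 32.7 and 32.01 CPM in the parental line. All 3 laggers lay above every leader, and leaders of passages 1 and 2 lay above those of passages 3 and 4 without overlap. Against the parental line BTG2 rose, with log2 fold changes of 2.27 ± 0.22, adjusted p = 2.21e-06, 2.26 ± 0.22, adjusted p = 3.68e-06, 1.29 ± 0.22, adjusted p = 0.000549 and 1.197 ± 0.22, adjusted p = 0.000849 in leaders of passages 1 to 4 and 3.11 ± 0.23, adjusted p = 1.72e-07 in laggers (edgeR).

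**Figure D3:**
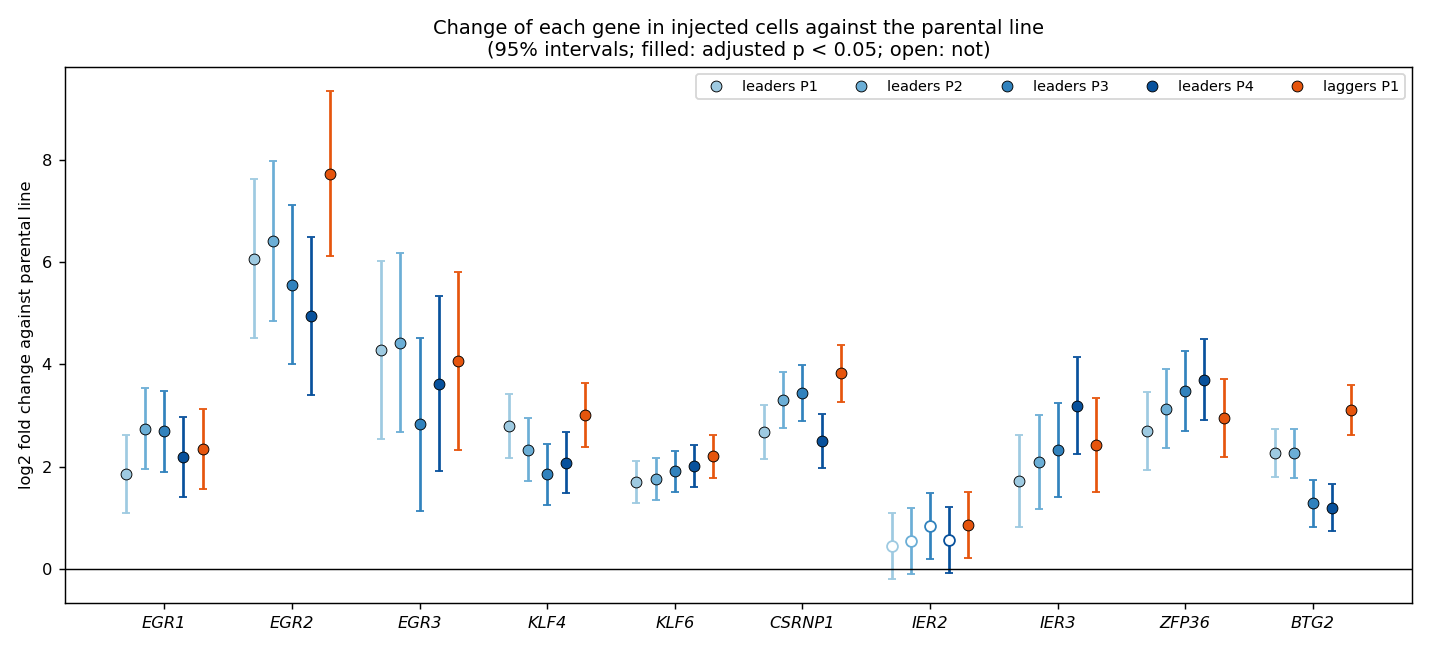
Log2 fold change of each gene against the parental line (vertical axis) with 95% intervals, for leaders of passages 1 to 4 (P1 to P4) and passage 1 laggers; filled points passed the edgeR test and open points did not. The 4 open points are IER2 in leaders, and all others are filled.

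Per kilobase of exon in GENCODE 29, which allows levels of different genes to be set side by side, ZFP36 and EGR1 led in the injected cells. In passage 4 leaders the mean level was 361 CPM per kb for ZFP36, 195 for EGR1, 136 for KLF6, 116 for IER2, 48.4 for IER3, 28.3 for BTG2, 19.5 for CSRNP1 and 5.26 for KLF4. In laggers BTG2 reached 107 CPM per kb, IER3 28.6, and EGR1 and ZFP36 218 and 214. In the parental line IER2 was highest at 78.0 CPM per kb, followed by EGR1 at 42.7, KLF6 at 33.8 and ZFP36 at 27.7. EGR2 and EGR3 stayed at or below 2.91 CPM per kb in the mean of any group.

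Leaders of passage 1 were set against laggers of the same passage to compare the 2 fractions collected after the first injection. None of the 10 members differed by edgeR at an adjusted p under 0.05, a test that called 0.0618% of all tested genes. By estimate 9 members were lower in leaders and EGR3 was higher. An unadjusted p under 0.05 was reached by 4 members and by 2339 of the 16187 tested genes. CSRNP1 averaged 70.7 ± 11.6 CPM in leaders and 157 ± 37.4 CPM in laggers (SD, n = 3 each), a log2 fold change of -1.15 ± 0.24, adjusted p = 0.0755. BTG2 averaged 164 ± 24.8 CPM in leaders and 295 ± 75.6 CPM in laggers (-0.85 ± 0.22, adjusted p = 0.12), and EGR2 3.39 ± 0.727 CPM in leaders and 10.7 ± 3.81 CPM in laggers (-1.66 ± 0.54, adjusted p = 0.213). For these 3 genes each leader library lay below each lagger library, as for 9.84% of tested genes. KLF6 was the other with an unadjusted p under 0.05 (-0.50 ± 0.19, adjusted p = 0.273). On the same counts edgeR called 10 of all genes, limma-voom 27 and DESeq2 372. Among the members limma-voom called CSRNP1 lower, and DESeq2 called CSRNP1, BTG2 and EGR2 lower (adjusted p = 0.00123, 0.0184 and 0.0129). Of the rest, EGR1 (-0.50 ± 0.35, 95% interval -1.25 to 0.25), IER3 (-0.71 ± 0.41, -1.58 to 0.17) and ZFP36 (-0.25 ± 0.34, -0.96 to 0.46) changed sign without lagger replicate 3, to 0.12, 0.11 and 0.21. EGR3 (0.22 ± 0.69) changed sign without leader replicate 3, to -0.086. Unaligned reads took 7.04% to 7.57% of entries in these leaders and 8.82% to 16.5% in the laggers, and their part in the difference was not tested.

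Over the leader passages the members parted ways. A linear slope over passages 1 to 4 was called for 4 of the 10: BTG2 and KLF4 fell, and IER3 and ZFP36 rose. Among all tested genes 11.7% had a rising and 9.38% a falling slope by the same rule. BTG2 fell by 0.42 ± 0.07 log2 units per passage (edgeR adjusted p = 0.00067), and its call held in each of the 19 alternative settings, left-out libraries included. IER3 rose by 0.46 ± 0.13 per passage (adjusted p = 0.0207) and ZFP36 by 0.34 ± 0.11 (adjusted p = 0.0355). KLF4 fell by 0.26 ± 0.09 (adjusted p = 0.0401). EGR2 had a slope below 0 that did not pass (-0.42 ± 0.17, adjusted p = 0.0895). It passed in 3 of the 19 alternative settings, each with all libraries kept. The slopes of EGR1 (0.10 ± 0.11), KLF6 (0.10 ± 0.06), CSRNP1 (-0.04 ± 0.07), IER2 (0.06 ± 0.10) and EGR3 (-0.36 ± 0.22) did not pass.

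With 1 library fewer, 3 of these 4 slopes could miss the threshold. IER3 lost its call without passage 1 leader replicate 1, 2 or 3 (adjusted p = 0.0565, 0.0593 and 0.0583) and without passage 4 leader replicate 3 (0.128). ZFP36 lost it without passage 1 replicate 1 or 3 (0.117 and 0.118), passage 2 replicate 2 or 3 (0.0532 and 0.0517), passage 3 replicate 3 (0.0515) or passage 4 replicate 3 (0.193). KLF4 lost it without passage 1 replicate 2 (0.178), passage 2 replicate 1 or 2 (0.0504 and 0.054), passage 3 replicate 1 (0.0511) or passage 4 replicate 1 or 3 (0.0934 and 0.13). Over all left-out libraries the slope ran from 0.34 to 0.51 for IER3, 0.23 to 0.42 for ZFP36 and -0.32 to -0.16 for KLF4, the value nearest 0 being that without passage 1 replicate 2 for KLF4 and without passage 4 replicate 3 for both others.

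The ends of the series were also compared directly. In passage 4 leaders IER3 averaged 65.6 ± 27.9 CPM, against 23.7 ± 0.295 CPM in passage 1 leaders (SD, n = 3 each), a log2 fold change of 1.47 ± 0.42, adjusted p = 0.0216. ZFP36 averaged 725 ± 268 CPM in passage 4 leaders and 361 ± 134 CPM in passage 1 leaders (1.01 ± 0.34, adjusted p = 0.0466). BTG2 averaged 78.1 ± 9.30 CPM in passage 4 leaders and 164 ± 24.8 CPM in passage 1 leaders (-1.07 ± 0.22, adjusted p = 0.00314). These 3 passed, 2 higher and 1 lower, where 10.8% of tested genes were called higher and 9.17% lower. BTG2 passed without any 1 of the 6 libraries. IER3 did not pass without passage 1 leader replicate 1, 2 or 3 (adjusted p = 0.0613, 0.0641 and 0.0646) or passage 4 replicate 3 (0.145), and ZFP36 did not without passage 1 replicate 1 or 3 (0.152 and 0.152) or passage 4 replicate 3 (0.255). KLF4 missed the threshold (-0.72 ± 0.27, adjusted p = 0.0741) and passed without passage 1 replicate 3 (adjusted p = 0.0432). EGR1 (0.34 ± 0.35, 95% interval -0.41 to 1.08) and CSRNP1 (-0.17 ± 0.23, -0.67 to 0.32) did not pass.

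The ratio of ZFP36 to BTG2 within a library does not depend on how libraries are scaled. It was 2.01, 3.09 and 1.56 in passage 1 leaders, 2.71, 2.90 and 3.51 in passage 2, 8.38, 6.52 and 7.76 in passage 3 and 8.14, 7.48 and 11.8 in passage 4. Laggers had ratios of 0.934, 1.08 and 2.45, and the parental line 1.47, 1.48 and 1.98. Each library of passages 3 and 4 lay above every other library of the set. The pairing of these genes was picked with their values in view, so the ratio carries no test.

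**Figure D4:**
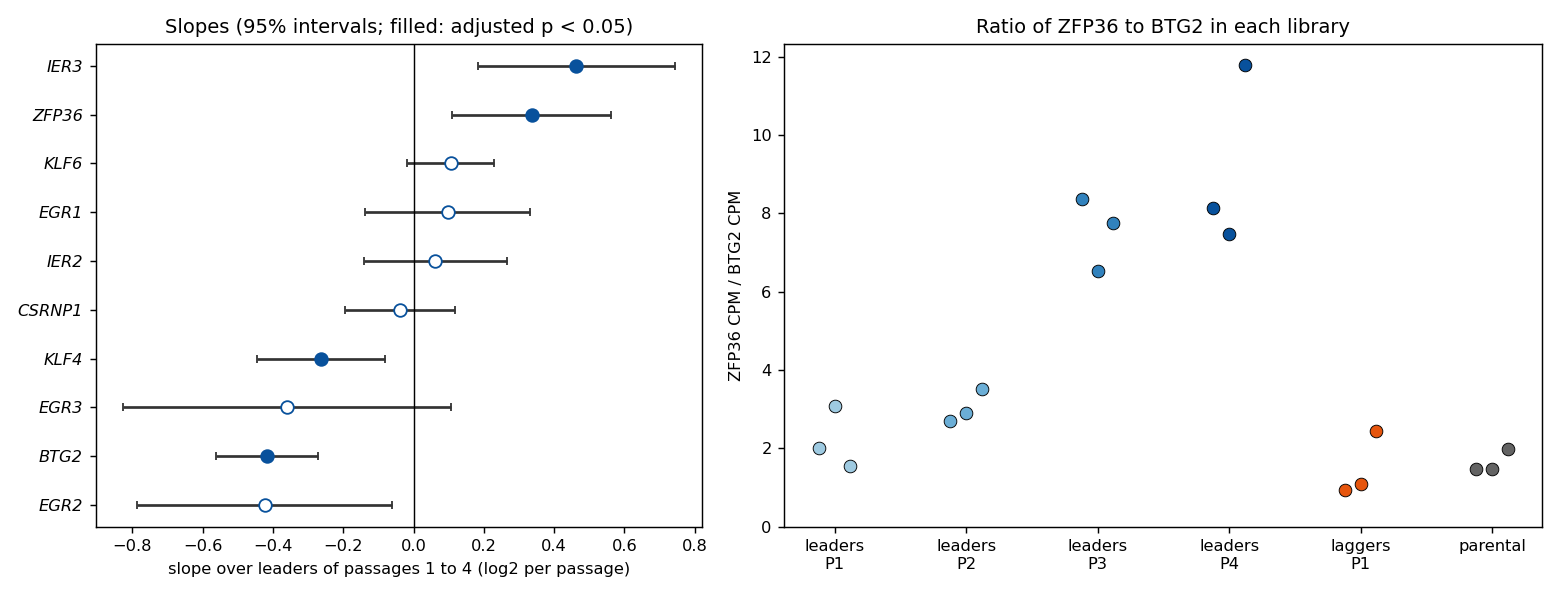
Left, slope of each gene over leaders of passages 1 to 4 (log2 units per passage, horizontal axis) with 95% intervals, filled where the edgeR test passed, which was so for IER3, ZFP36, KLF4 and BTG2. Right, ZFP36 level divided by BTG2 level (CPM over CPM, axis from 0) in each library by group, with the leaders of passages 3 and 4 above all others.

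Replicates of a group differed in ways that several members shared. Over the 45 pairs of members, the deviations of log2 CPM from the group mean correlated across the 18 libraries with a median Pearson r of 0.35, from -0.22 to 0.91, and 18 pairs exceeded 0.5. EGR1 and IER2 were the closest pair (r = 0.91), followed by EGR1 and KLF6 (r = 0.87), KLF6 and IER2 (r = 0.85) and EGR1 and ZFP36 (r = 0.83). KLF4, BTG2, EGR2 and EGR3 stood further from EGR1, with r = 0.37, 0.27, 0.22 and 0.11 against it. KLF4 had r = 0.60 with IER2, and BTG2 had r = 0.41 with ZFP36. EGR2 and EGR3 have few counts, and the members of a library share its size factor. Neither these correlations nor the counts of members that follow were computed for other genes. Whether the members moved together more than other genes do was not tested. In parental replicate 3, lagger replicate 3, passage 1 leader replicate 2 and passage 3 leader replicate 2, 8 of the 10 members lay above the mean of their group, while in parental replicate 2 and passage 1 leader replicate 1 none did. In 5 of the 6 groups the library with the largest unaligned share was also the one with the highest mean deviation of the members, the exception being passage 4 leaders. In laggers the mean deviation was -0.44, 0.02 and 0.41 at unaligned shares of 8.82%, 12.6% and 16.5%. This was looked at after the values were seen, and its part in the spread was not tested. Between the groups, unaligned shares were 4.09% to 10.1% in parental libraries and 6.51% to 24.8% in injected ones.

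**Figure D5:**
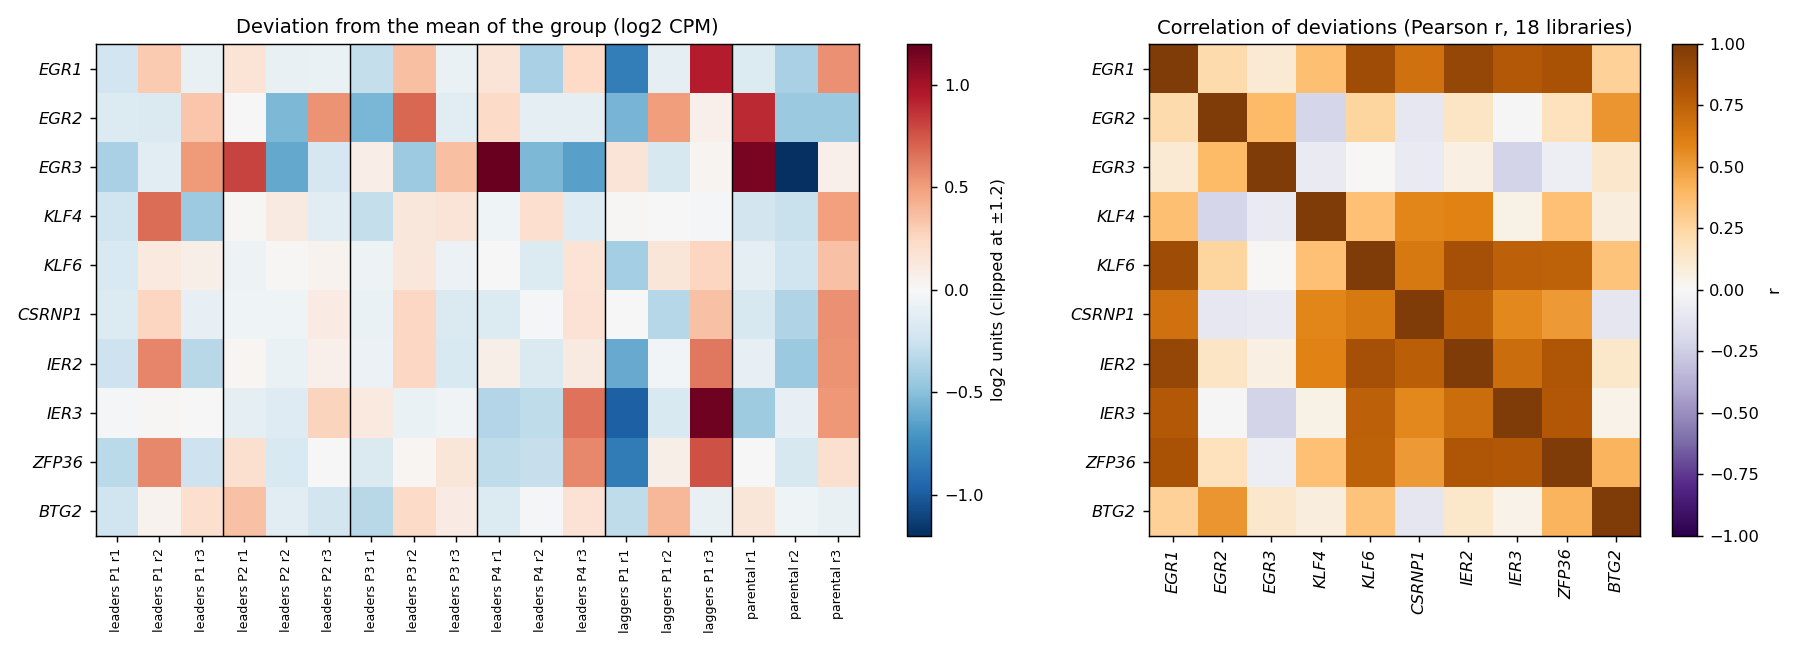
Left, deviation of each gene (rows) in each library (columns) from the mean of its group, in log2 CPM, with groups parted by lines; right, Pearson r of these deviations between genes over 18 libraries. EGR1, KLF6, IER2, IER3 and ZFP36 move together within groups, while EGR3 does not follow them.

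The genes most like EGR1 over all 18 libraries, by Pearson r of log2 CPM among tested genes outside the set, were DDR1 (0.955), KCNMB4 (0.937), FNDC4 (0.935), PSAP (0.933) and EGR4 (0.932). Most like the mean standardised profile of the 10 members were DDIT4 (0.977), RHOB (0.977), NAGK (0.975), FOSB (0.971) and JUN (0.969). These correlations describe libraries that fall mainly into parental and injected ones, and carry no test.

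Other genes of the immediate early response were counted by list. The shares of all tested genes called higher and lower against the parental line, given above, are the background for each list here and below. Of 16 other transcription factors of the response, 9, 10, 10 and 10 rose and 3, 3, 2 and 2 fell in leaders of passages 1 to 4, and 11 rose and 2 fell in laggers, against the parental line. FOS, a subunit of AP-1, and NR4A2, an orphan nuclear receptor, had log2 fold changes of 5.95 ± 0.32 and 8.85 ± 0.37 in passage 4 leaders and 5.85 ± 0.32 and 11.70 ± 0.40 in laggers, NR4A2 from 11 parental counts in all. Those that fell were FOSL2 and MAFF in passage 4 leaders and FOSL1 and FOSL2 in laggers. Over the leader passages 5 of the 16 fell, namely FOSB, ATF3, NR4A1, NR4A2 and NR4A3, and FOSL1 and KLF2 rose. Among all tested genes 9.38% fell and 11.7% rose over these passages. Of 23 other effectors, 11, 10, 10 and 11 rose and 2, 2, 2 and 2 fell in leaders of passages 1 to 4, and 11 rose and 1 fell in laggers. Those with small adjusted p included DUSP1, a phosphatase that inactivates MAP kinases (3.47 ± 0.25 in passage 4 leaders and 3.17 ± 0.25 in laggers), and RHOB, a small GTPase (3.08 ± 0.28 in passage 4 leaders and 3.84 ± 0.29 in laggers). The median log2 fold change of the 16 factors was 1.78, 1.81, 1.83 and 1.84 in leaders of passages 1 to 4 and 2.30 in laggers. That of the 23 effectors was 1.15, 0.76, 0.31 and 0.67 in leaders of passages 1 to 4 and 1.005 in laggers. Along the leader passages 3 of the 23 rose and 4 fell.

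Among the nearest relatives of the members, 18 of 20 could be tested. Of these, 7, 6, 4 and 7 rose and 2, 0, 1 and 0 fell in leaders of passages 1 to 4, and 8 rose and 2 fell in laggers. Their median log2 fold change was 0.34, 0.40, 0.31 and 0.64 in leaders of passages 1 to 4 and 0.62 in laggers. EGR4, the fourth EGR gene and also among the 16 factors above, changed by 4.08 ± 0.44, adjusted p = 1.08e-05, in passage 4 leaders and 5.47 ± 0.47, adjusted p = 6.23e-07, in laggers. BTG1, the closest relative of BTG2, changed by 3.66 ± 0.32, adjusted p = 1.22e-06, in passage 4 leaders and 2.66 ± 0.30, adjusted p = 9.6e-06, in laggers. Along the passages BTG1 rose (0.34 ± 0.09, adjusted p = 0.0153) where BTG2 fell, and TOB1, another antiproliferative relative, fell (-0.52 ± 0.08, adjusted p = 0.000596). ZFP36L1 rose against the parental line in both groups, and ZFP36L2 and TOB2 passed in neither.

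Few kinases and factors upstream of the response rose against the parental line. Of 16 genes, among them MAPK3, SRF, the ELK factors and CREB1, 1, 1, 1 and 0 rose and 9, 2, 1 and 1 fell in leaders of passages 1 to 4, and 0 rose and 5 fell in laggers. The median log2 fold change was -0.73, -0.07, -0.13 and 0.12 in leaders of passages 1 to 4 and -0.41 in laggers, lowest in passage 1 leaders. RPS6KA1 and RPS6KA4, kinases below ERK and p38, changed by -1.76 ± 0.30, adjusted p = 0.000319, and -1.43 ± 0.29, adjusted p = 0.00117, in laggers. Over the leader passages 7 of the 16 rose and none fell, where 11.7% of all tested genes rose, and the median in passage 4 leaders was near 0 against the parental line. SRF had a slope of 0.44 ± 0.08, adjusted p = 0.00172, and RPS6KA4 one of 0.72 ± 0.09, adjusted p = 9.93e-05.

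Known downstream genes were mixed. Of all tested genes, 23.2%, 15.1%, 13.8% and 14.8% were called higher in leaders of passages 1 to 4 and 21.5% in laggers. Called lower were 22.4%, 14.8%, 10.8% and 12.9% in leaders of passages 1 to 4 and 17.8% in laggers. Of 14 tested EGR co-repressors and EGR1 targets, 3, 4, 3 and 4 rose and 2, 2, 2 and 3 fell in leaders of passages 1 to 4, and 3 rose and 1 fell in laggers. Their median log2 fold change was 0.22, 0.17, 0.04 and 0.11 in leaders of passages 1 to 4 and -0.02 in laggers. NAB1, a co-repressor of EGR proteins, changed by 3.60 ± 0.49, adjusted p = 8.32e-05, in passage 4 leaders and 2.19 ± 0.47, adjusted p = 0.00182, in laggers, and HPSE, the matrix enzyme heparanase, by -2.86 ± 0.58, adjusted p = 0.00193, in passage 4 leaders and -2.95 ± 0.59, adjusted p = 0.00102, in laggers. Of 10 tested transcripts known as targets of ZFP36, 1, 0, 1 and 5 rose and 2, 2, 3 and 0 fell in leaders of passages 1 to 4, and 1 rose and 2 fell in laggers. Their median log2 fold change was -0.15, -1.16, -0.09 and 1.33 in leaders of passages 1 to 4 and -0.17 in laggers. TNF, a cytokine mRNA that ZFP36 destabilises, changed by 3.99 ± 1.23, adjusted p = 0.0241, in passage 4 leaders and 4.17 ± 1.24, adjusted p = 0.0144, in laggers. Along the passages 4 of the 10 rose and none fell, where 11.7% of all tested genes rose. Those 4 were VEGFA, an angiogenic factor also in the EGR1 list (0.98 ± 0.10), PLAUR and PLAU, receptor and enzyme of plasminogen activation (1.24 ± 0.21 and 1.03 ± 0.21), and the cytokine LIF (0.56 ± 0.11). Of 14 genes of the deadenylase complexes with which BTG2 and ZFP36 work, 1, 1, 1 and 1 rose and 4, 3, 3 and 4 fell in leaders of passages 1 to 4, and 1 rose and 4 fell in laggers, with CNOT2 the one that rose in passage 4 leaders and in laggers. Of 13 tested p53 targets, the group to which BTG2 itself belongs, 3, 3, 1 and 4 rose and 2, 0, 0 and 1 fell in leaders of passages 1 to 4, and 5 rose and 1 fell in laggers, with CDKN1A, an inhibitor of cyclin-dependent kinases, at 3.46 ± 0.37 in passage 4 leaders and 3.60 ± 0.37 in laggers.

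Heat shock genes and markers of other cell types were read beside the members. Of 12 heat shock genes, 7, 8, 5 and 6 rose and 1, 0, 0 and 0 fell in leaders of passages 1 to 4, and 7 rose and 0 fell in laggers, against the parental line. The summed level of 10 fibroblast markers was 1008 to 2309 CPM, 739 to 1503 CPM, 549.6 to 1336 CPM and 235 to 497 CPM in leaders of passages 1 to 4, 1273 to 2152 CPM in laggers and 119 to 253 CPM in the parental line. Of the 7 fibroblast markers tested, 5, 3, 3 and 3 rose and 1, 0, 0 and 1 fell in leaders of passages 1 to 4, and 5 rose and 0 fell in laggers, and DPT was at 0 counts in laggers, in the parental line and in leaders of passages 2 and 4. DCN, a defining fibroblast gene, was at 0 to 0.179 CPM in passage 4 leaders and at 4.97 to 12.0 CPM in laggers. The markers that rose in passage 4 leaders were COL1A2, at 37.0 to 95.6 CPM against 0.776 to 0.994 CPM in the parental line, COL3A1, at 175 to 381 against 4.54 to 10.2 CPM, and PDGFRA, at 9.57 to 16.3 against 0.0255 to 0.273 CPM. Macrophage and leukocyte markers summed to 2.27 to 35.1 CPM in injected libraries and 1.79 to 5.51 CPM in parental ones, with LYZ at 0 counts in all injected groups. PTPRC, a leukocyte gene, had 151, 214, 196 and 47 counts in leaders of passages 1 to 4 and 0 in laggers and the parental line. ITGAM, another, was at 9.51 to 34.8 CPM in passage 4 leaders and 1.17 to 3.88 CPM in the parental line. Of the 4 tested, 1, 1, 1 and 2 rose and 1, 1, 1 and 1 fell in leaders of passages 1 to 4, and none passed in laggers. Endothelial markers summed to 1.48 to 14.5 CPM in injected libraries and 3.29 to 6.39 CPM in parental ones, with ERG at 0 counts in every group, and of 5 tested 1 rose in passage 4 leaders and none passed in laggers. Red cell markers summed to at most 3.29 CPM outside passage 3 leader replicate 2. The part of these groups in the changes of the members was not tested.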

How the data were processed

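Per the labels' protocols, cDNA was amplified by SMART-Seq v4 without strand information and read in pairs of 50 bases. The authors deposited raw counts per gene, and the submitters' processing notes name cutadapt 1.6, STAR 2.5.0a, HTSeq 0.5.3 and DESeq 1.22.1. Neither build nor annotation is given in the sources used here. The 5 entries of the table that name no gene (27.6% to 60.6% of all entries) were left out of library sizes and tests.

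From the deposited counts, edgeR 4.0.16 in R 4.3.3 fitted all 18 libraries with 1 mean per group, after TMM scaling and the edgeR expression filter (16187 of 57445 genes kept), and tested 8 comparisons by quasi-likelihood F tests. Benjamini-Hochberg adjustment ran over all tested genes within a comparison, and a gene was called at an adjusted p under 0.05. The biological coefficient of variation was 35.5%. SEs come from the log2 fold change and its F statistic. Correlations used log2 CPM with a prior count of 2. Replicates differed beyond counting noise, with chi-square statistics of 21.2 to 238 for each degree of freedom. All 10 members are named. From each list up to 4 tested genes with the smallest adjusted p could be named, and genes whose call is stated by name outside that rule (those that fell, for example) were chosen after their values were seen. The members and lists were chosen with earlier results of these data known. DESeq2 1.42.0, limma-voom (limma 3.58.1), another scaling, no filter, nuclear library sizes, only the groups compared, a replicate block and leaving out each library were tried. Same-numbered libraries of laggers and the parental line deviated together (r = 0.11, 0.13 and 0.40), which no label explains, and for none of the other 14 pairs of groups did all 3 exceed 0.1. Some genes of the lists are counted but not reported here by name. Gene positions are from GENCODE 29 and promoters from RefSeq.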

Additional observations from a re-analysis of the deposited data

How the results depend on the processing

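Against the parental line the count of called members stayed at 9 for leaders of passages 1, 2 and 4 under every setting run, between 8 and 10 for passage 3 leaders and between 9 and 10 for laggers, and no log2 fold change of a member changed sign. In passage 3, EGR3 lost its call in a fit of only the groups compared (adjusted p = 0.0723) and IER2 passed with no filter, nuclear library sizes, limma-voom and DESeq2 (adjusted p = 0.0321, 0.0453, 0.0346 and 0.0349). In laggers IER2 lost its call in a fit of only the groups compared (adjusted p = 0.135). The count for passage 1 leaders against laggers was 0 with all edgeR settings but the one with no filter, which gave 1, and was 1 with limma-voom and 3 with DESeq2. Over all genes those settings called 257, 27 and 372, against 10. When each library was left out in turn it stayed at 0, with log2 fold changes of -0.82 to 0.12 for EGR1, -1.08 to 0.11 for IER3, -0.57 to 0.21 for ZFP36 and -0.086 to 0.41 for EGR3. For passage 4 against passage 1 leaders the count was 5 with DESeq2, which added EGR2 and KLF4, and 2 with DESeq2 size factors in edgeR, where ZFP36 had an adjusted p of 0.0511. A fit of only these groups kept the count at 3 but called EGR2 (adjusted p = 0.0431) in place of ZFP36 (0.0583). Leaving out single libraries gave counts of 1 to 3 there, with IER2 at -0.053 to 0.41 (log2), and counts of 1 to 4 for the slope over passages. The causes of these changes were not tested, apart from the smaller number of libraries when one is left out. No scaling moved the median log2 fold change of all genes by more than 0.1. The scalings used place most genes near a log2 fold change of 0, so this cannot show a change in RNA content shared by most genes.

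With the replicate number as a block the counts of called members were 9 against the parental line for each passage of leaders and 10 for laggers, 0 for passage 1 leaders against laggers, 3 for passage 4 against passage 1 and 3 for the slope. The KLF4 slope was lost under the block (adjusted p = 0.0504), ZFP36 in passage 4 against passage 1 leaders stood at the threshold (adjusted p = 0.05), and no other call of a member changed. Over all groups same-numbered libraries had r from -0.41 to 0.40 (45 pairs, 8 above 0.1), and 5 of 18 libraries were closest to their own number. The 3 pairs of laggers and parental line were all above 0.1, and there the block left all 10 calls in place. Elsewhere the libraries share only a number. Counts of 0 to 5 in the parental line limit what can be said of the size of the EGR2 change.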
